A study of Mus musculus with 16 samples.

Results

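The genes described here are 37 genes of fatty acid oxidation and targets of the nuclear receptor PPARA, measured in mouse liver. They were chosen by name, with earlier results of these data known. A gene's value is its brightest row in the deposited log2 table, the row with the highest mean over all arrays. Of the 37 genes, 34 had a row, none being matched for Acsl1, Hadha and Cyp4a10. Of these, 32 lay in the upper 50% of rows by mean signal (log2 mean above 6.25) and were tested among 7790 such genes. Cpt1a and Vnn1 lay under that limit. In all, 16563 genes had a row.

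Fasting sends fatty acids from adipose tissue to the liver, where they bind and activate PPARA. PPARA pairs with RXR on DNA and raises transcription of genes for carnitine-dependent entry into mitochondria, mitochondrial and peroxisomal beta-oxidation, microsomal omega-oxidation, ketone body production and the hormone FGF21. Omega-oxidation by CYP4A enzymes oxidises the far end of the chain, and the resulting dicarboxylic acids are shortened in peroxisomes.

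Liver RNA came from 16 male C57BL/6 mice, 4 in each of 4 groups, with 1 array per mouse. The groups were CYP7A1 transgenic mice on a Western diet (Tg_WD), wild-type mice on that diet (WT_WD), transgenic mice on chow (Tg_Chow) and wild-type mice on chow (WT_Chow). The wild-type mice were littermates of the transgenic ones. Mice were 12 to 14 weeks old at the start, ate their diet for 4 months, were housed singly, and were 6 months old per the labels. Fat supplied 42% of the calories of the Western diet, which contained 0.2% cholesterol. Every liver was taken after an overnight fast of about 16 h, so each level is a fasted one and no fed liver was measured. The sources used here name neither the species and promoter of the transgene nor the number of transgenic lines. CYP7A1 catalyses the rate-limiting step of the classical route from cholesterol to bile acids. The Cyp7a1 row averaged 6.56 ± 0.53 in Tg_WD, 11.19 ± 1.03 in WT_WD, 7.04 ± 0.64 in Tg_Chow and 11.68 ± 0.42 in WT_Chow livers (log2, SD, n = 4 each). It was lower in the Tg-labelled livers, with log2 differences of -4.63 on the Western diet and -4.64 on chow (limma adjusted p = 1.002e-06 and 1.631e-06). The Tg_WD values, 6.2 to 7.33, reached the signal limit of 6.25, so these differences are not given as folds and may be too small. Which transcript this probe reads in transgenic mice is not given, so it does not check the labels.

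Values are log2 array signals, and differences in log2 units are between groups for the same row, never between rows. Within groups, Spearman correlations between arrays over all rows were 0.931 to 0.953. The liver label was checked on hepatocyte markers: Apoa1 and Ttr averaged 14.36 to 14.6 in every group. The Alb row averaged only 6.41 to 6.8, although albumin is among the most abundant liver transcripts, so a dim row on this array need not mean a scarce transcript. In whole liver, fewer cells of a type and less RNA per cell cannot be told apart. Markers of macrophages, antigen-presenting cells and stellate cells moved with diet, mostly in wild-type livers, and their values stand beside the diet results. A gene was called at a limma p, adjusted by Benjamini-Hochberg over all 7790 genes, under 0.05.

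Promoter sequence was taken from RefSeq (GRCm38.p6), as the window from 250 bases before to 50 bases after each start, for the 29 members with an entry (32 windows). The PPARA and RXR element is a direct repeat of AGGTCA with 1 base between the copies. On either strand, AGGTCANAGGTCA was in 0 of the 32 windows and in 0.0396% of all 32851 windows. The looser AGGNCANAGGNCA was in 0 of the 32 and in 0.381% of all. The single hexamer AGGTCA, which every match of the strict repeat contains and a match of the looser one need not, was in 7 of the 32 windows (21.9%), against 16.3% of all, in Acadm, Acadvl, Acot3, Acot4, Cpt1a and Echs1. Those 7 windows belong to 6 of the 29 members, since Acot3 counts with more than 1 window. No match says only that these letters are not in this window. The upstream 250 bases follow for 3 members that fell on the Western diet. Acot1 and Acot4 belong to a run of 4 thioesterase genes (Acot1 to Acot4) whose windows lie within 64.5 kb of chromosome 12. Acot1 is shown for the largest fall among them, and Acot4 because it has the hexamer before its start. Acadvl is shown because it fell in both genotypes and has the hexamer as well. Each runs 5′ to 3′ in the direction of the gene, ends at the base before the start, and has the hexamer AGGTCA or its complement TGACCT in capitals.
Acot1, chr12:84009252-84009501, plus strand: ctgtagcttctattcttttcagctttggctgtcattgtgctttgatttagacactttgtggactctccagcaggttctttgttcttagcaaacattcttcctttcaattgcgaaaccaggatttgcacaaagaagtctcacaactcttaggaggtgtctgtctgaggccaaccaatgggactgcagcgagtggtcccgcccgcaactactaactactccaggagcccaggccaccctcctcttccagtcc
Acot4, chr12:84038129-84038378, plus strand: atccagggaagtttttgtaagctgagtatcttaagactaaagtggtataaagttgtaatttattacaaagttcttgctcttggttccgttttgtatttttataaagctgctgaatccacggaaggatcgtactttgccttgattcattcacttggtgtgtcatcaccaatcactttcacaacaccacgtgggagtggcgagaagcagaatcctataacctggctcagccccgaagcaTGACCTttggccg
Acadvl, chr11:70015429-70015678, minus strand: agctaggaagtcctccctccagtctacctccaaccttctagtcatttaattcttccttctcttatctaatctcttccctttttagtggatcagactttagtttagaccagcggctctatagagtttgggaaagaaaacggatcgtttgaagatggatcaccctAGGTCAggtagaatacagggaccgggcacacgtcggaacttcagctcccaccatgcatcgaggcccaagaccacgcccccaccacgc

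Every diet call among the members was a fall on the Western diet, in either genotype. In transgenic livers 9 of the 32 members were lower on the Western diet than on chow and 0 were higher. Those 9 are 28.1% of the members, against 4.96% of all genes tested called lower (and 4.85% higher). As the members were chosen with earlier results of these data known, such shares describe the list and do not test it. In wild-type livers 12 were lower and 0 higher, or 37.5%, against 9.18% of all genes called lower (and 10.3% higher). The members' median log2 change was -0.29 in transgenic and -0.26 in wild-type livers, against -0.01 and -0.04 over all genes. The 2 diet comparisons share no array. Called lower in both were Acadl, Acadvl, Angptl4, Cyp4a14, Cyp4a31 and Slc25a20, which is 66.7% of the transgenic and 50% of the wild-type calls. Over all genes, 156 were called lower in both, or 40.4% of the transgenic and 21.8% of the wild-type calls. Below 0 in both were 23 members (71.9%), against 36.9% of all genes. The groups did not overlap, with Western diet below chow, for 10 members in transgenic and 12 in wild-type livers (9.17% and 11.9% of all genes). Of the 9 transgenic calls, 6 held under all 24 alternatives in scaling, filtering, model and single arrays left out (Acadl, Acadvl, Angptl4, Cyp4a14, Cyp4a31 and Ehhadh). Of the 12 wild-type calls, 7 did (Acot1, Angptl4, Cpt2, Crat, Cyp4a14, Eci2 and Slc25a20). The others lost significance under 4 to 7 of the 24, mostly with single arrays left out: in transgenic livers Slc25a20 (4), Acaa1a (5) and Acot2 (6), and in wild-type livers Cyp4a31 (4), Acadl (6), Acadvl, Acot4 and Decr1 (7 each).

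**Figure D1:**
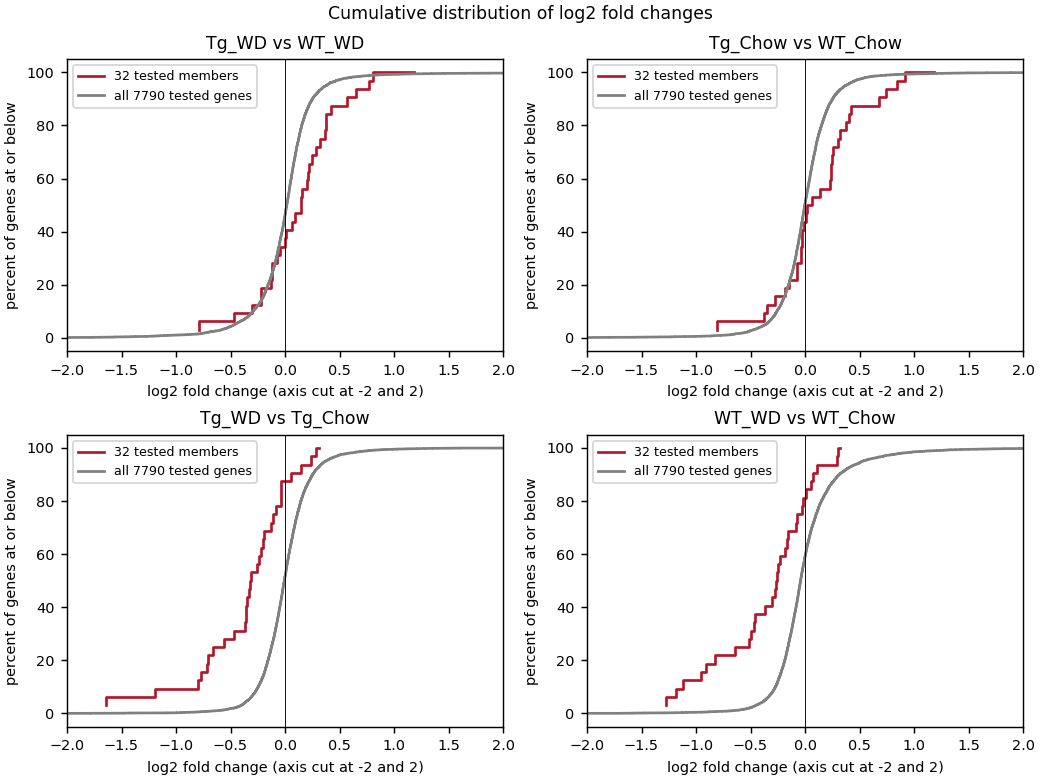
Cumulative percent of genes (y axis) at or below each log2 fold change (x axis), for the 32 tested members in red and all 7790 tested genes in grey, in 4 comparisons. In the lower panels, Western diet against chow, the members' medians were -0.29 (Tg) and -0.26 (WT), left of the medians of all genes.

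The members that carried the fall included the CYP4A omega-hydroxylases. Cyp4a14 read 13.71, 13.38, 14.52 and 13.86 on the Tg_WD arrays, 13.1, 13.05, 13.71 and 13.34 on the WT_WD arrays, 14.62, 14.62, 14.68 and 14.64 on the Tg_Chow arrays and 14.43, 14.6, 14.54 and 14.76 on the WT_Chow arrays. Every Western diet liver lay below every chow liver of its genotype, and Tg_WD replicate 3 came nearest to chow. It fell 1.71-fold in transgenic livers (log2 -0.77, SE 0.18, limma adjusted p = 0.01325) and 2.43-fold in wild-type livers (-1.28, SE 0.18, adjusted p = 0.000112). The chow values lie close to 14.83, the highest value of the table on every array. Cyp4a31 read 11.41, 11.23, 11.96 and 11.29 on the Tg_WD arrays, 10.62, 10.43, 10.87 and 11.37 on the WT_WD arrays, 12.77, 12.51, 12.67 and 12.68 on the Tg_Chow arrays and 10.84, 12.14, 12 and 11.96 on the WT_Chow arrays. The transgenic groups were fully apart, while WT_Chow replicate 1 lay among the WT_WD livers. Cyp4a31 fell 2.28-fold in transgenic livers (-1.19, SE 0.25, adjusted p = 0.005853) and 1.88-fold in wild-type livers (-0.91, SE 0.25, adjusted p = 0.01534). Signals of closely related Cyp4a genes, such as Cyp4a10, and of the Acaa1 and Acot pairs may include each other's transcripts, since no probe sequence was compared. Aldh3a2, the fatty aldehyde dehydrogenase that follows omega-hydroxylation, did not pass the test for diet (0.31 in transgenic and 0.3 in wild-type livers).

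**Figure D2:**
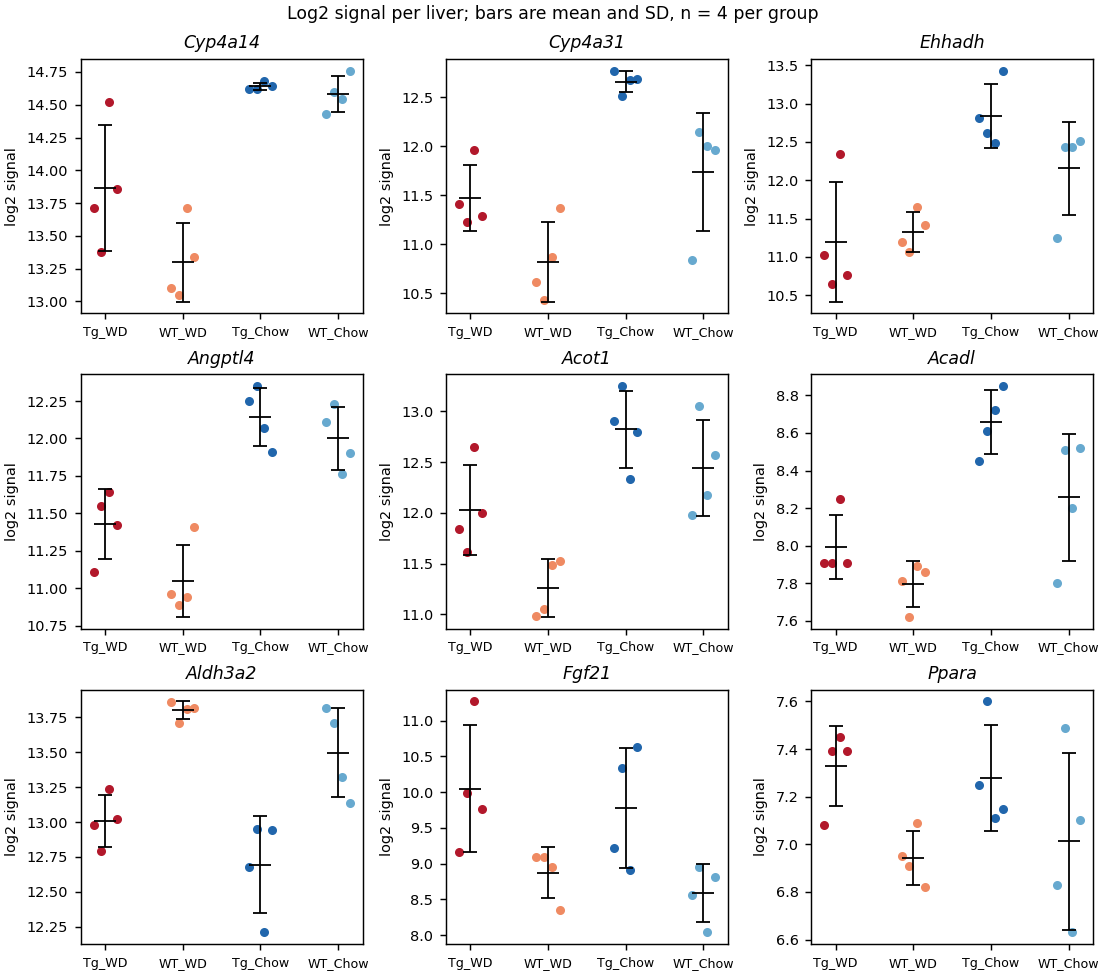
Log2 signal (y axis) of 9 members on each of the 16 arrays, by group (x axis); points are livers, and the horizontal mark and bars are the mean and SD of 4. Cyp4a14, Angptl4 and Acadl sit lower in the Western diet groups of both genotypes, Aldh3a2 sits lower in both Tg groups, and Tg_WD replicate 3 is the highest Ehhadh value of its group at 12.34.

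In peroxisomes, Ehhadh, the bifunctional hydratase and dehydrogenase of peroxisomal beta-oxidation, had the largest fall of any member. It read 11.02, 10.65, 12.34 and 10.77 on the Tg_WD arrays, 11.19, 11.06, 11.65 and 11.42 on the WT_WD arrays, 12.81, 12.62, 12.48 and 13.43 on the Tg_Chow arrays and 11.25, 12.43, 12.44 and 12.51 on the WT_Chow arrays. All Tg_WD livers lay below all Tg_Chow livers. In wild-type livers WT_Chow replicate 1 lay within the Western diet range, and the other 3 chow livers lay above it. Ehhadh fell 3.11-fold in transgenic livers (-1.64, SE 0.33, limma adjusted p = 0.005173). In wild-type livers the change of -0.83 (SE 0.33) did not pass (adjusted p = 0.09), and the difference in diet effect between the genotypes did not pass either (-0.81, 95% interval -1.8 to 0.19, adjusted p = 0.366). Of the other peroxisomal members, Acaa1a, a peroxisomal thiolase, fell in transgenic livers (-0.26, adjusted p = 0.02776). Eci2, an enoyl-CoA isomerase, fell in wild-type livers (-0.37, adjusted p = 0.007117). Acaa1b, Decr2 and Pex11a, a peroxisome division protein, were not called for diet in either genotype.

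The acyl-CoA thioesterases split acyl-CoA into free fatty acid and CoA. Acot1, the cytosolic member, read 11.84, 11.62, 12.65 and 12 on the Tg_WD arrays, 10.98, 11.05, 11.49 and 11.53 on the WT_WD arrays, 12.91, 13.25, 12.33 and 12.8 on the Tg_Chow arrays and 11.98, 13.05, 12.18 and 12.57 on the WT_Chow arrays. The wild-type groups were apart, and in the transgenic groups Tg_WD replicate 3 lay above Tg_Chow replicate 3. The change of -0.8 in transgenic livers did not pass (limma adjusted p = 0.05032), and without Tg_WD replicate 3 it was -1 (adjusted p = 0.01287). In wild-type livers Acot1 fell 2.27-fold (-1.18, SE 0.25, adjusted p = 0.002675). Acot4, a peroxisomal thioesterase, read 9.38, 8.86, 9.88 and 9.61 on the Tg_WD arrays, 8.98, 9.06, 9.34 and 9.23 on the WT_WD arrays, 9.56, 10.12, 9.42 and 9.93 on the Tg_Chow arrays and 9.8, 10.26, 9.57 and 9.52 on the WT_Chow arrays. Only the wild-type groups did not overlap, and Acot4 fell 1.56-fold there (-0.64, SE 0.2, adjusted p = 0.03558). Acot2, the mitochondrial member, fell in transgenic livers (-0.47, adjusted p = 0.0235). Acot3 had a change of -0.56 in transgenic livers and, with no overlap, of -1.12 in wild-type livers (adjusted p = 0.05027); neither passed.

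Carnitine carries long-chain acyl groups across the inner mitochondrial membrane. Of the 3 tested genes of carnitine transport and acyl transfer, 1 fell in transgenic livers and all 3 in wild-type livers. Slc25a20, the acylcarnitine carrier, had a log2 change of -0.32 in transgenic (limma adjusted p = 0.02082) and -0.47 in wild-type livers (adjusted p = 0.000643). Cpt2, the inner-membrane carnitine palmitoyltransferase, had -0.5 (adjusted p = 0.00279) and Crat, carnitine acetyltransferase, had -0.51 (adjusted p = 0.001585) in wild-type livers. Their transgenic changes of -0.24 and -0.11 did not pass. Cpt1a, the rate-limiting step of entry, read 6.11, 5.83, 6.06 and 6.02 on the Tg_WD arrays, 5.97, 6.04, 5.94 and 6.09 on the WT_WD arrays, 6.03, 5.9, 5.96 and 5.89 on the Tg_Chow arrays and 6.07, 6.15, 6.3 and 5.96 on the WT_Chow arrays. All 4 groups overlapped, with a mean over all arrays below the signal limit of 6.25 and WT_Chow replicate 3 alone above it. With no limit on signal, no comparison of Cpt1a was called, the largest difference being -0.17 between Tg_Chow and WT_Chow (adjusted p = 0.2404). As for Alb, a dim row cannot tell a low level from a probe that reads its transcript poorly, and the same holds for Vnn1 (group means 5.86 to 5.92), a pantetheinase.

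Inside mitochondria, each turn of beta-oxidation removes an acetyl-CoA through a dehydrogenase, a hydratase, a second dehydrogenase and a thiolase. Acadl, the long-chain acyl-CoA dehydrogenase, read 7.91, 7.91, 8.25 and 7.91 on the Tg_WD arrays, 7.81, 7.62, 7.89 and 7.86 on the WT_WD arrays, 8.45, 8.61, 8.72 and 8.85 on the Tg_Chow arrays and 7.8, 8.51, 8.2 and 8.52 on the WT_Chow arrays. The transgenic groups were apart, and WT_Chow replicate 1 lay within the WT_WD range. Acadl fell 1.58-fold in transgenic livers (-0.66, SE 0.14, limma adjusted p = 0.006104) and 1.38-fold in wild-type livers (-0.46, SE 0.14, adjusted p = 0.02643). Acadvl, the very-long-chain dehydrogenase, fell less, by 1.28-fold in transgenic (-0.36, adjusted p = 0.01097) and 1.2-fold in wild-type livers (-0.26, adjusted p = 0.03601). The wild-type call of Acadvl was lost without any one of the WT_Chow arrays or of WT_WD replicates 1, 2 and 3 (adjusted p up to 0.1108). That of Acadl was lost with median scaling, with only the 8 arrays compared, and without WT_Chow replicate 2 or 4 or WT_WD replicate 1 or 2. Decr1, which handles unsaturated chains, fell in wild-type livers (-0.28, adjusted p = 0.04149), with 0.15 in transgenic livers. The other 8 tested genes of the spiral (Acadm, Acads, Hadhb, Echs1, Hadh, Acaa2, Eci1 and Etfdh) were not called for diet in either genotype, with changes of -0.37 to 0.05. Over the 11 tested genes of the spiral, 10 changes were below 0 in each genotype, with medians of -0.19 in transgenic and -0.18 in wild-type livers.

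Among secreted targets, Angptl4, an inhibitor of lipoprotein lipase, read 11.11, 11.55, 11.64 and 11.42 on the Tg_WD arrays, 10.96, 10.89, 10.94 and 11.41 on the WT_WD arrays, 12.25, 12.35, 12.07 and 11.91 on the Tg_Chow arrays and 12.11, 12.23, 11.76 and 11.9 on the WT_Chow arrays. Western diet and chow livers did not overlap in either genotype. It fell 1.64-fold in transgenic (-0.72, SE 0.14, limma adjusted p = 0.004482) and 1.93-fold in wild-type livers (-0.95, SE 0.14, adjusted p = 0.000166). Several other members were not called for diet in either genotype. The receptor gene Ppara changed by 0.05 in transgenic and -0.07 in wild-type livers, and neither passed. Fgf21, the fasting hormone, changed by 0.28 and 0.29, Bdh1, the ketone body dehydrogenase, by 0.24 and 0.32, and Pdk4, the kinase that switches off pyruvate dehydrogenase, by -0.71 and 0.07, in transgenic and wild-type livers in that order; none passed.

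**Figure D3:**
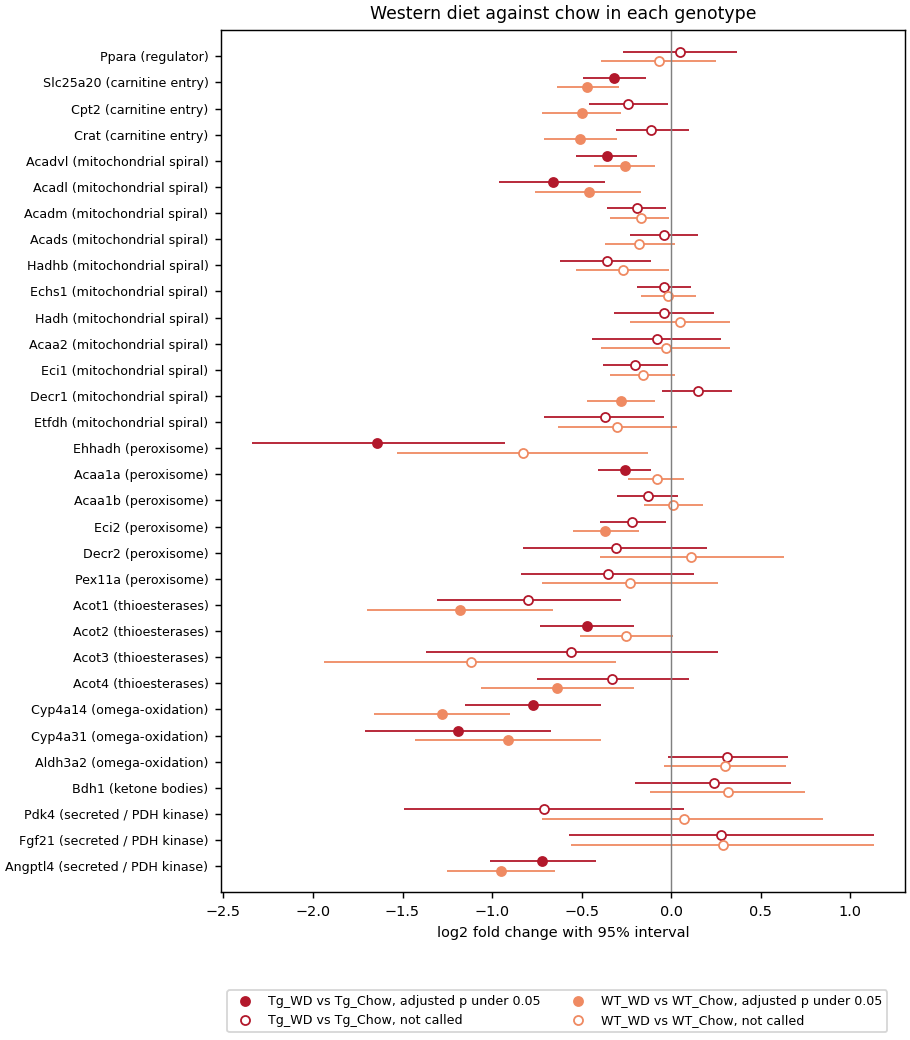
Log2 fold change of Western diet against chow (x axis, with 95% interval) for the 32 tested members (y axis, with their role), in transgenic (dark red) and wild-type (orange) livers; filled points were called. No filled point lies above 0, and Ehhadh in transgenic livers, at -1.64, lies farthest left.

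Averaged over both genotypes, a comparison added after the values were seen, 19 members were lower and 0 higher on the Western diet (59.4%, against 13.1% of all genes called lower). Their list then also held Acot3, Hadhb, Etfdh, Eci1 and Acadm, which neither genotype alone had called. Of these 5, Hadhb alone was called under all 23 alternatives, while Acadm lost significance under 2, Acot3 under 8, Eci1 under 10 and Etfdh under 11. All 4 thioesterases were among them, at -0.99 (Acot1), -0.36 (Acot2), -0.84 (Acot3) and -0.48 (Acot4). The interaction called 0 of the 32 members (2 at an unadjusted p under 0.05, Decr1 and Crat), against 5.21% of all genes, so no difference in diet response between the genotypes passed for any member. The smallest p-values were those of Decr1 (0.43, 95% interval 0.15 to 0.7, limma adjusted p = 0.068) and Crat (0.4, 95% interval 0.11 to 0.69, adjusted p = 0.1114). The self-test on simulated arrays recovered 67% of interaction effects of 1.5-fold and 96% of those of 2-fold. Those shares are over all changed genes of the self-test, and recovery for the members themselves was not tested. The members' SE for the interaction ran from 0.1 (Acaa1a and Echs1) to 0.57 (Fgf21), with 0.47 for Ehhadh.

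Markers of other cell types also moved with diet, mostly in wild-type livers. In transgenic livers 0 of 16 tested macrophage markers were called (3 at an unadjusted p under 0.05; median 0.19), and their level was 8.13 to 8.72 in Tg_WD and 7.91 to 8.45 in Tg_Chow livers. Also higher in transgenic livers were 3 of 6 class II antigen presentation genes (median 0.44, all 6 above 0) and 1 of 8 endothelial markers (median 0.15), and of 13 stellate and matrix genes 0 were called (4 at an unadjusted p under 0.05; median 0.14). In wild-type livers 13 of the 16 macrophage markers were higher and 1 lower on the Western diet (median 1.74). Also higher there were 6 of 6 class II antigen presentation genes (median 2.04), 11 of 13 stellate and matrix genes (median 0.72) and 5 of 8 endothelial markers (median 0.34). The interaction called 68.8% of macrophage, 100% of class II and 38.5% of stellate and matrix markers lower, against 3.06% of all genes. It called 6.25% of macrophage markers higher, against 2.16% of all genes, and 0 endothelial markers. The mean macrophage marker level was 8.65 to 9.06 in WT_WD and 7.07 to 8.07 in WT_Chow livers. Of 5 tested hepatocyte markers, 1 fell in transgenic livers (Cps1 at -0.79) and 2 in wild-type livers (Alb at -0.39 was the largest). The Alb row is the dim one described above, close to the signal limit, and it counts in the mean level of the 5. That mean level was 12.27 to 12.35 in Tg_WD, 12.14 to 12.3 in WT_WD, 12.36 to 12.55 in Tg_Chow and 12.29 to 12.45 in WT_Chow livers. The part of other cell types in the members' values was not tested in either genotype. Of 3 tested erythroid markers, 33.3% were called lower on the Western diet in transgenic livers and 100% in wild-type livers. The brightest, Hba-a1, averaged 12.96 in Tg_WD against 14.39 in Tg_Chow and 12.49 in WT_WD against 14.18 in WT_Chow livers. Alas2 did not fall in transgenic livers, at 9.92 in Tg_WD against 9.87 in Tg_Chow. Lymphocyte and adipocyte markers had 1 and 0 tested rows.

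Transgenic livers were then compared with wild-type livers on each diet. The calls were few and went both ways. On the Western diet 3 members were higher and 3 lower in transgenic than in wild-type livers (6.77% and 8.29% of all genes), and on chow 1 was higher and 3 lower (4.58% and 5.40%). The 3 members are 9.38% of the list, so the shares are near the background. The members' median was 0.16 on the Western diet and 0.1 on chow, against 0.02 and 0 over all genes. No overlap was seen for 5 members above and 4 below on the Western diet (11.5% and 11.8% of all genes), and for 3 above and 3 below on chow (6.17% and 7.28%). With arrays scaled by their medians in place of the deposited scaling, the calls over all genes shifted to 278 higher and 1089 lower on the Western diet, in place of 527 and 646. On chow they shifted to 171 higher and 952 lower, in place of 357 and 421. The member count on the Western diet dropped to 3 without Tg_WD replicate 4, any of WT_WD replicates 1, 2 and 3, or Tg_Chow replicate 1. The share of all genes called was then 11.7% to 14.7%, in place of 15.1%. On chow the member count was 2 without Tg_Chow replicate 1 or 4 or WT_Chow replicate 1 or 3, and 7 without WT_Chow replicate 2. The share of all genes was then 5.25% to 8.32%, and 11.9%, in place of 9.99%. Of the macrophage markers 3 were higher and 5 lower in Tg_WD than in WT_WD livers, and 5 higher and 0 lower in Tg_Chow than in WT_Chow livers. All 6 class II genes (median -1.59) and 10 of 13 stellate and matrix genes (median -0.68, all 13 below 0) were lower in Tg_WD than in WT_WD livers, as was 1 of 8 endothelial markers. Their part in the members' values was not tested.

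Aldh3a2 was the member that differed most firmly by genotype. It read 12.98, 12.79, 13.24 and 13.02 on the Tg_WD arrays, 13.86, 13.71, 13.81 and 13.82 on the WT_WD arrays, 12.68, 12.95, 12.21 and 12.94 on the Tg_Chow arrays and 13.82, 13.71, 13.32 and 13.14 on the WT_Chow arrays. Every transgenic liver lay below every wild-type liver of its diet. Aldh3a2 was 1.73-fold lower on the Western diet (-0.79, SE 0.16, limma adjusted p = 0.00275) and 1.75-fold lower on chow (-0.81, SE 0.16, adjusted p = 0.004578), and was called under every alternative tried. Its neighbour in the pathway, Cyp4a31, went the other way, 1.9-fold higher on chow (0.92, SE 0.25, adjusted p = 0.0259) and 0.65 on the Western diet, which did not pass. Without WT_Chow replicate 1, the low one, the chow difference was 0.63 (adjusted p = 0.05636), and the call was also lost with median scaling, with only the 8 arrays compared, and without Tg_Chow replicate 1 or 4. Acadm, the medium-chain dehydrogenase, was lower on both diets by its brighter row (-0.3 on the Western diet, adjusted p = 0.01317; -0.28 on chow, adjusted p = 0.03023). Its other row gave -0.22 and 0.42, neither called, so the rows disagree on chow. The Acadm calls were lost under 3 of the 24 alternatives on the Western diet and 7 on chow.

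On the Western diet the higher members were Acot1 (0.77, limma adjusted p = 0.04383), Cyp4a14 (0.57, adjusted p = 0.04405) and Decr1 (0.42, adjusted p = 0.005066), and Acaa1a was lower (-0.22, adjusted p = 0.04731). Decr1 read 9.24, 9.24, 9.04 and 9.07 in Tg_WD and 8.67, 8.6, 8.75 and 8.91 in WT_WD livers, with no overlap. It was called under every alternative. The other 3 calls were fragile. Acot1 lost significance under 11 of the 24 alternatives, which were median scaling, no signal limit, the replicate block, and leaving out WT_WD replicate 1, 2 or 3, Tg_WD replicate 1, 3 or 4, Tg_Chow replicate 1 or WT_Chow replicate 4. Cyp4a14 lost it under 14, among them median scaling, no signal limit, only the 8 arrays compared, and leaving out any Western diet array but WT_WD replicate 3 and Tg_WD replicate 2. Acaa1a lost it under 15, among them median scaling, no signal limit, the replicate block, and leaving out any one of the 8 Western diet arrays (adjusted p up to 0.1973). Without Tg_WD replicate 3, Acot1 was 0.56 (adjusted p = 0.1469) and Cyp4a14 0.35 (adjusted p = 0.1281). That array was the highest of its group in 25 of the 32 members, against 28% of all genes. On chow, Cpt2 was lower (-0.38, adjusted p = 0.03023), and Tg_Chow replicate 1, at 11.68, lay just above the lowest WT_Chow liver at 11.66. That call was lost under 6 of the 24 alternatives: with only the 8 arrays compared, and without WT_Chow replicate 1 or 3 or Tg_Chow replicate 2, 3 or 4.

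**Figure D4:**
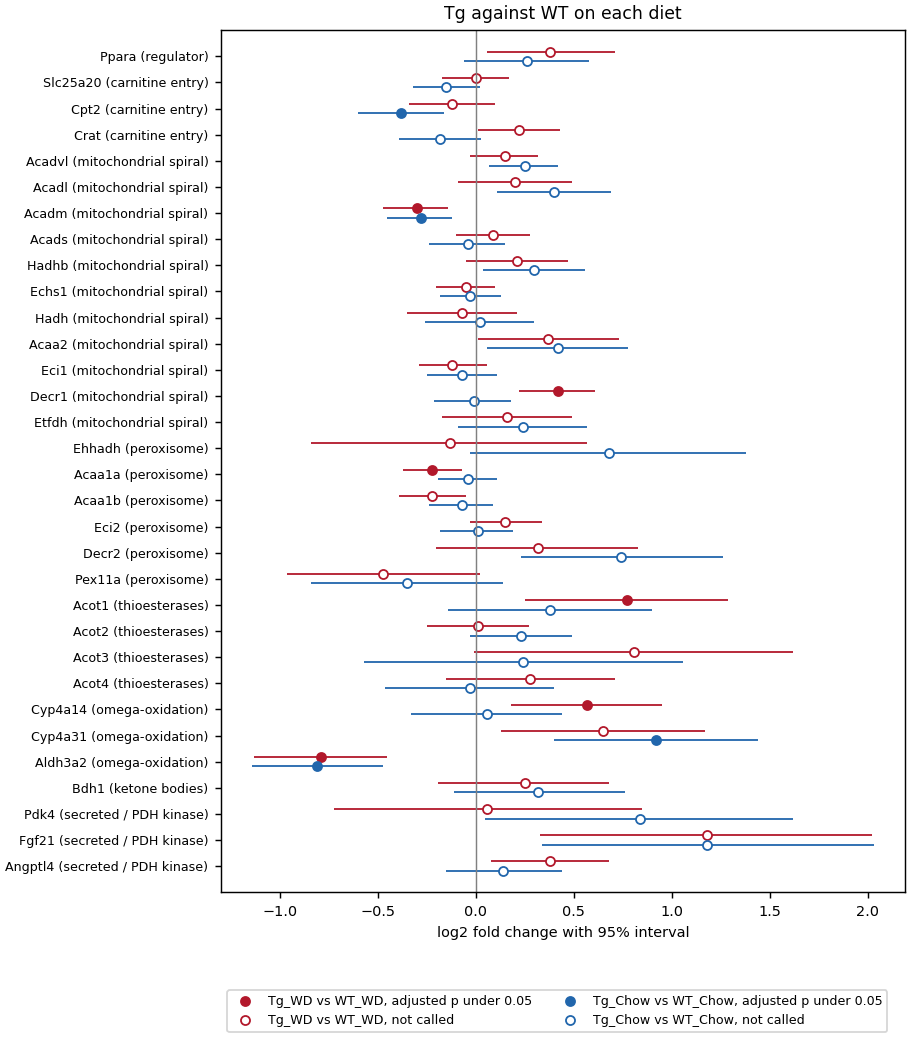
Log2 fold change of transgenic against wild-type livers (x axis, with 95% interval) for the 32 tested members (y axis, with their role), on the Western diet (dark red) and chow (blue); filled points were called. Aldh3a2 lies at about -0.8 on both diets, and Fgf21 at 1.18 on both.

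Fgf21 had the largest genotype difference without being called on a single diet. It read 9.17, 9.99, 11.27 and 9.77 on the Tg_WD arrays, 9.09, 9.1, 8.96 and 8.36 on the WT_WD arrays, 9.22, 10.34, 8.91 and 10.63 on the Tg_Chow arrays and 8.56, 8.96, 8.04 and 8.82 on the WT_Chow arrays. All Tg_WD livers lay above all WT_WD livers, and on chow Tg_Chow replicate 3 lay just below the highest WT_Chow liver. The difference was 1.18 on the Western diet (SE 0.4, limma adjusted p = 0.05931) and 1.18 on chow (SE 0.4, adjusted p = 0.07048). Averaged over the diets, a comparison added after the values were seen, it was 2.26-fold (1.18, SE 0.28, adjusted p = 0.007514), and it was called under every alternative. Ppara read 7.08, 7.39, 7.45 and 7.39 on the Tg_WD arrays, 6.95, 6.91, 7.09 and 6.82 on the WT_WD arrays, 7.25, 7.6, 7.11 and 7.15 on the Tg_Chow arrays and 6.83, 7.49, 6.63 and 7.1 on the WT_Chow arrays. Transgenic and wild-type livers overlapped on each diet, by Tg_WD replicate 1 alone on the Western diet. The differences of 0.38 and 0.26 did not pass singly. Their average of 0.32 did (adjusted p = 0.04223), but the call was lost under 12 of 23 alternatives: median scaling (0.24, adjusted p = 0.1101), no signal limit, and 10 of the 16 arrays left out singly (0.26 to 0.33).

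In that average, 10 members were higher and 3 lower in transgenic livers (31.2% and 9.38% of members, against 9.94% and 10.2% of all genes). The higher ones were Fgf21, Cyp4a31 (0.79), Acot1 (0.57), Decr2 (0.53), Acaa2 (0.4), Ppara, Acadl (0.3), Hadhb (0.25), Acadvl (0.2) and Decr1 (0.2), and the lower ones Aldh3a2 (-0.8), Acadm (-0.29) and Cpt2 (-0.25). Decr2, a peroxisomal reductase for unsaturated chains, and Acaa2, the mitochondrial thiolase, each had WT_Chow replicate 1 lowest, at 8.03 and 11.54. Aldh3a2, Cyp4a31 and Fgf21 were called under every alternative. The count was 7 with median scaling, 3 higher and 4 lower, where 3.97% of all genes were called higher and 22.4% lower. The count was 5 without WT_WD replicate 2, 6 without Tg_Chow replicate 2 and 7 without WT_Chow replicate 3. It was 8 without Tg_WD replicate 2, WT_WD replicate 1 or WT_Chow replicate 1. Without these single arrays 16.2% to 18.3% of all genes were called, in place of 20.1%.

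Another 46 genes of fatty acid handling that are not members were set beside the list, 42 with a row and 38 tested. They too were chosen with earlier results of these data known, so their shares are only descriptive. On the Western diet 1 of the 38 was higher and 8 lower in transgenic livers, and 0 were higher and 15 lower in wild-type livers. In transgenic livers these are 2.63% and 21.1%, against 4.85% and 4.96% of all genes. In wild-type livers the lower ones are 39.5%, against 9.18% of all genes called lower and 10.3% higher. The median of the 38 was -0.09 in transgenic and -0.3 in wild-type livers. Lower in both were, among others, Acat1, a mitochondrial thiolase (-1.29 in transgenic and -0.85 in wild-type livers), Retsat, retinol saturase (-0.93 and -0.81), Slc27a1, a fatty acid transporter (-0.9 and -0.62), and Slc22a5, the carnitine transporter (-0.61 and -0.9). Cyp4a12a, an omega-hydroxylase, had the largest wild-type fall (-1.54), with a log2 SD of 1.25 in WT_WD and 0.46 in WT_Chow livers. Lpin1, a phosphatidate phosphatase, also fell in wild-type livers (-0.89), and Nudt7, a peroxisomal CoA hydrolase, rose in transgenic livers (0.79). For genotype, 10 were higher and 1 lower on the Western diet, and 4 higher and 0 lower on chow. On the Western diet these are 26.3% and 2.63%, against 6.77% and 8.29% of all genes. On chow the higher ones are 10.5%, against 4.58% of all genes called higher and 5.40% lower. Cyp4a12b, a relative of Cyp4a12a, was higher in transgenic livers by 2.19 on the Western diet and 1.49 on chow. Cyp4a12a was higher by 1.91 on the Western diet. Both rows were widely spread in WT_WD livers, with an SD of 1.09 for Cyp4a12b and 1.25 for Cyp4a12a. In Tg_WD livers the SD was 0.35 and 0.29, and in WT_Chow livers 0.87 and 0.46, in that order. Hacl1, the lyase of alpha-oxidation, was higher by 1.41 and 1.13, and Acsl3, an acyl-CoA synthetase, by 1.04 and 0.99, on the Western diet and chow.

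**Figure D5:**
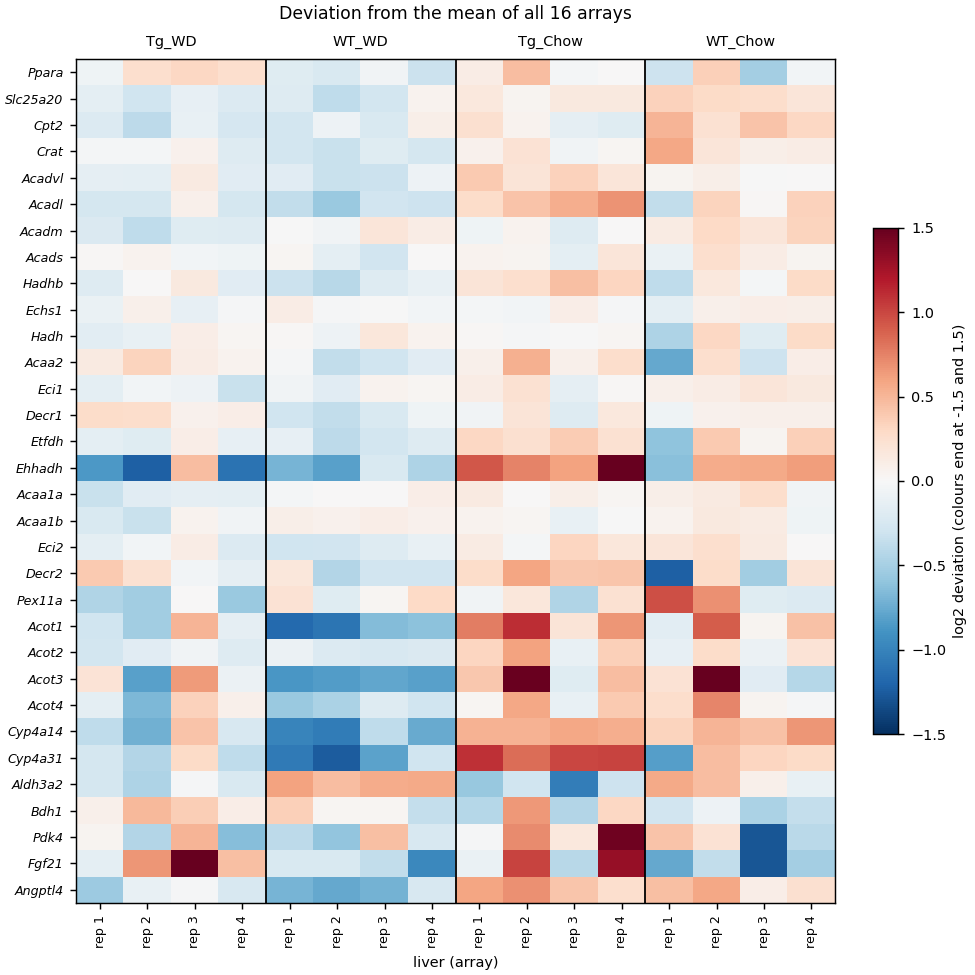
Log2 deviation (colour) of each tested member (y axis, ordered by role) from its mean over all 16 arrays, for each liver (x axis) in its group. Ehhadh, Cyp4a31, Acot1 and Angptl4 are blue in most Western diet livers and red in most chow livers, and WT_Chow replicate 1 departs from its group for Ehhadh, Cyp4a31 and Decr2.

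Single livers moved many members together. WT_WD replicate 2 was the lowest of its group for 20 of 32 members (21.2% of all genes), WT_Chow replicate 2 the highest for 17 (22.5%), and WT_Chow replicate 1 (31.6%) and Tg_Chow replicate 3 (23.2%) each the lowest for 16. Leaving out WT_WD replicate 2 or WT_Chow replicate 2 took the wild-type diet calls to 7, all lower, while the share of all genes called lower was 5.79% and 7.24%, against 9.18% with every array.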

How the data were processed

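Total liver RNA (250 ng per mouse, labelled with biotin per the labels' protocols) was read on 16 Illumina arrays. The authors deposited 1 intensity per row and array on a linear scale, and a table of log2 values for the same 25697 rows, with a scaling step that the sources used here do not name. The deposited log2 values kept the order of the intensities on every array, lay within 0.0631 of the quantile-normalized log2 intensities, and were not centred per gene. No genome build is named, and the number of arrays limits the precision.

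Symbols came from the platform annotation, updated by Entrez ID through RefSeq GRCm38.p6 (23962 of 23978 named rows matched; 1719 rows had no symbol). Values shared by more than 1 symbol were left out (42 symbols), and the brightest row stood for a gene. One limma fit (limma 3.58.1, R 4.3.3) with 4 group means over 16 arrays and 12 residual degrees of freedom gave all comparisons; p-values are two-sided. Array intensities, with normexp (offset 50) and quantile normalization, served as an alternative, as did median scaling, no signal limit, the mean of a gene's rows, only the 8 arrays compared, a replicate block, a term for replicates 1 and 2 against 3 and 4, an intensity trend, and each array left out. On simulated arrays of 7790 genes, 200 of them changed, the fit was tested and called 97% of 2-fold changes for genotype on either diet, and 99% and 100% for diet in transgenic and wild-type livers. Of 1.5-fold changes it called 90% for genotype on the Western diet and 86% on chow. For diet it called 91% of them in transgenic and 88% in wild-type livers. False calls were 5.18% to 7.43% of the calls in these comparisons, with the highest share for genotype on the Western diet. Recovery for the members themselves, whose spread differed from gene to gene, was not tested. Same-numbered arrays correlated from -0.206 to 0.24 in their deviations from the group means. Of 16 arrays, 9 correlated best with an array of their own number. The match was sought among the other groups, in which 1 of every 4 arrays had that number. Arrays of different groups averaged 0.05 within replicates 1 and 2 or 3 and 4, and -0.05 across them. These values do not settle whether the numbers pair the mice, so the replicate block stands only as an alternative.

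The members and lists were chosen with earlier results of these data known. Every member could be named; values for each array are given for called members that changed at least 1.5-fold in a comparison of groups, and for Ppara, Cpt1a and Fgf21. Of the other pathway genes up to 6 called genes of largest change per comparison could be named, Cyp7a1 as the targeted gene, and of each marker list the brightest gene and the called gene of largest change. Ttr, and the values of Decr1, Cpt2, Decr2 and Acaa2 on single arrays, were chosen after they were seen.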

Additional observations from a re-analysis of the deposited data

Results flagged for a closer look

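In 9 of 136 groups of 4 livers (34 members in 4 groups, 6.62%), 1 liver lay far from the other 3 by Dixon's criterion, which chance meets in about 1 in 20 groups. Tg_WD replicate 3 was high for Acadl (8.25, the others all 7.91) and Acadvl (12, the others 11.7 to 11.73), and Tg_WD replicate 1 was low for Ppara (7.08, the others 7.39 to 7.45). WT_WD replicate 4 was high for Angptl4 (11.41, the others 10.89 to 10.96). Tg_Chow replicate 2 was low for Slc25a20 (10.92, the others 11.01 to 11.03). WT_Chow replicate 1 was low for Cyp4a31 (10.84, the others 11.96 to 12.14), Decr1 (8.91, the others 9.04 to 9.05), Echs1 (11.56, the others 11.79 to 11.81) and Ehhadh (11.25, the others 12.43 to 12.51). Without WT_Chow replicate 1, the members called for diet were 12 in transgenic livers (9 with it; 13.2% of all genes, 9.81% with it) and 13 in wild-type livers (12 with it; 21.3% of all genes, 19.5% with it), all lower. For genotype they were 9 on the Western diet (6 with it; 17.7% of all genes, 15.1% with it) and 2 on chow (4 with it; 6.53% of all genes, 9.99% with it).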

How the results depend on the processing

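The comparisons averaged over diets or genotypes were added after the data were seen. Counts of members called stayed within 1.5 times of those reported except as follows. For genotype on the Western diet the count was 2 with median scaling, in place of 6. It was 3 with no signal limit, 11 with only the 8 arrays compared, and 3 to 9 with single arrays left out. Over all genes the called shares were 17.5%, 6.77%, 19.1%, and 11.7% to 17.7%, in that order, in place of 15.1%. For genotype on chow the count was 1 with only the 8 arrays compared, in place of 4, and 2 to 7 with single arrays left out. Over all genes the shares were 3.98%, in place of 9.99%, and 5.25% to 11.9%. Averaged over diets the count was 7 with median scaling and 8 with no signal limit, in place of 13. It was 5 to 16 with single arrays left out. Over all genes the shares were 26.3%, 8.62%, and 16.2% to 20.9%, in that order, in place of 20.1%. The interaction called 1 member, Decr1, with median scaling (0.46, limma adjusted p = 0.03336), and 0 to 1 with single arrays left out. Over all genes it called 5.52%, and 3.32% to 6.07%, in place of 5.21%. With single arrays left out, diet calls ranged from 6 to 12 in transgenic livers and 7 to 14 in wild-type livers. Averaged over genotypes they ranged from 15 to 20. Over all genes the shares ranged from 6.05% to 13.2%, 13.3% to 21.3% and 21.1% to 30%, in that order. With every array they were 9.81%, 19.5% and 25.8%. With a replicate block the counts for genotype were 4 on the Western diet and 4 on chow. For diet they were 10 and 11 in transgenic and wild-type livers, and for the interaction 0. Over all genes the shares were 15.7%, 9.88%, 10.5%, 19.8% and 5.24%, in that order. Of 16 arrays, 9 correlated best with their own number, which 1 of every 4 arrays in the other groups had. Of the 63 called single-gene values, 1 changed sign under an alternative: Acadm between Tg_Chow and WT_Chow was 0.07 with the mean of its rows, which give opposite signs. Of the 161 values not called, 45 changed sign under at least 1 alternative, with neither value past the threshold. Single-gene values stayed on their side of the threshold in 4982 cases, lost significance in 215 and gained it in 82. Calls held under every alternative for 6 of 9 members (diet, transgenic), 7 of 12 (diet, wild-type), 2 of 6 (genotype, Western diet), 1 of 4 (genotype, chow), 15 of 19 (averaged over genotypes) and 3 of 13 (averaged over diets). With the mice numbered 1 and 2 compared apart from those numbered 3 and 4, both gave the same sign for 25 of 32 members for diet in either genotype (66.3% of all genes in transgenic and 72.4% in wild-type livers), 27 for genotype on the Western diet (72.9%) and 25 on chow (67.1%). The cause of the other changes was not tested. Signal close to background limits Acot2 and Ppara, and signal close to the top of the scale limits Cyp4a14 and Acaa1b.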
